A study of Homo sapiens with 9 samples.

Results

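The 2 peak lists from PC3, an established line from a metastatic prostate carcinoma, were compared, one of regions precipitated with an antibody against ETV4 and the other with an antibody against JUND. Together they held 6116 of the 27416 peaks in the 6 lists of the study, and 51.4% of the 6116 were ETV4 peaks. Both libraries came from cells without retroviral expression, grown as the supplier advises, and chromatin immunoprecipitation was followed by sequencing (ChIP-seq). The other 4 lists were from RWPE-1, a non-tumorigenic prostate epithelial line: endogenous ETS1 and GABPA, and FLAG-ERG and FLAG-ETV1 expressed from a retrovirus and precipitated through the FLAG tag. A PC3 peak was counted as shared where it overlapped a peak of the other PC3 list by 1 bp or more, and otherwise as ETV4-only or JUND-only.

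ETV4 belongs to the PEA3 subgroup of the ETS transcription factors, which bind DNA through a winged helix-turn-helix domain at sites with a GGAA core. JUND is a basic leucine zipper protein and one of the JUN subunits of AP-1, which binds TGANTCA sites as a dimer with FOS or JUN partners. ETS and AP-1 sites often lie side by side in enhancers that respond to RAS/MAPK signalling, and in prostate cancer ETV4 is one of the ETS genes activated by rearrangement. The title of the study asks about oncogenic ETS proteins in place of that signalling, and the 2 PC3 lists bear on where an ETS and an AP-1 protein are found in the same cells.

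ETV4 and JUND were each represented by 1 library. There is no replicate error, and the factors were compared without a test. Shares carry Wilson 95% intervals and medians carry 95% intervals from order statistics. Both cover counting error only and treat peaks as independent, which neighbouring peaks are not. The files hold no score or read depth. They were mapped to hg18, for which no sequence or gene annotation was used here, so regions are given by position and no gene is assigned. The peaks carry no marker against which the cell line could be checked.

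ETV4 and JUND overlapped in 722 regions, and each of these joined exactly 1 ETV4 peak to 1 JUND peak. Shared peaks made up 23.0% of the ETV4 list (21.5 to 24.5%) and 24.3% of the JUND list (22.8 to 25.9%). With midpoints required to lie within 100 bp the shares were 14.2% and 15.0%. The other 2421 ETV4 and 2251 JUND peaks were in a single PC3 list, so 13.4% of the 5394 PC3 regions carried both factors (12.5 to 14.3%). In bases, 277895 bp were covered by both lists, which was 18.4% of the ETV4 and 19.8% of the JUND bases. The one-to-one pairing follows from the spacing of the peaks. No peak was wider than 501 bp, and no 2 midpoints of the same list were closer than 1018 bp for ETV4 or 1012 bp for JUND.

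Where the 2 factors met, their peaks lay largely on top of each other. The overlap had a median of 406.5 bp (399 to 415 bp), and in 93.8% of the shared regions it covered at least 50% of the shorter peak (91.8 to 95.3%). Midpoints were within 50 bp of each other in 283 regions, or 39.2% (35.7 to 42.8%), and within 300 bp in 96.7% (95.1 to 97.8%). The distances had quartiles of 29.3 and 144.5 bp and a maximum of 457 bp. Marginal contacts were rare, as 2 regions overlapped by under 10% of the shorter peak. The JUND midpoint had the higher coordinate in 52.8% of the regions (49.1 to 56.4%), so neither factor lay to one side along the chromosomes. No region had the same start and end in both lists.

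**Figure D1:**
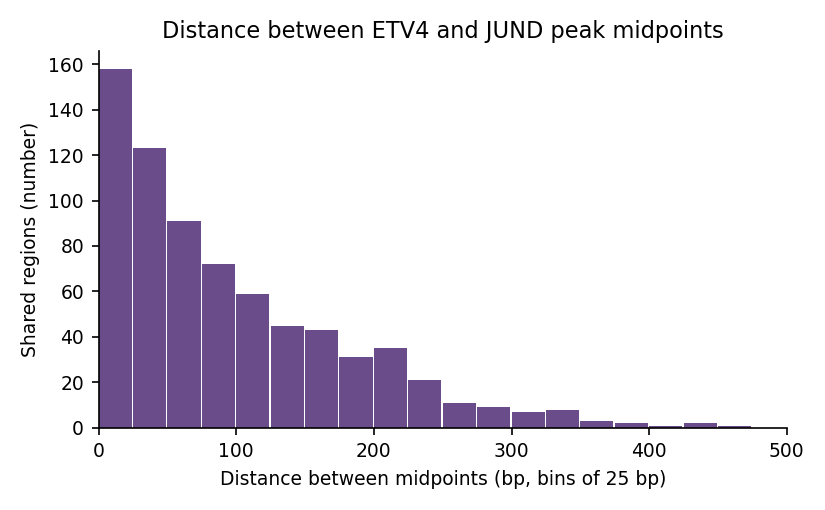
Number of shared regions (vertical axis) by the distance between the ETV4 and the JUND midpoint in bp (horizontal axis, bins of 25 bp). The lowest bin is the fullest, 39.2% of the regions lie within 50 bp, and the tail ends at 457 bp.

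The shared regions that stood nearest to the first rows of both files were all on chromosome 10. The ETV4 peak at chr10:33593097-33593597 was in row 12 of its file and overlapped the peak in row 1 of the JUND file, with midpoints 3 bp apart. At chr10:33694784-33695317 the rows were 10 and 9 and the midpoints 35.5 bp apart, and at chr10:33484934-33485504 the rows were 17 and 3 and the midpoints 73 bp apart. None of these 3 regions overlapped a peak of an RWPE-1 list. The shared regions nearest to the last rows were chrX:9307897-9308461 (ETV4 row 3114, JUND row 2831), chr8:75355545-75356167 (rows 2800 and 2921) and chr2:88118867-88119333 (rows 3043 and 2656). These also overlapped none of the RWPE-1 lists, and their midpoints were 71.5, 164 and 36.5 bp apart.

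Peaks of a single list were rarely near misses of the overlap rule. Of the 2421 ETV4-only peaks, 23 had a JUND peak within 500 bp (0.95%, 0.634 to 1.42%), and 23 JUND-only peaks had an ETV4 peak that close (1.02%, 0.682 to 1.53%). A JUND peak lay within 10 kb of 12.7% of the ETV4-only peaks (11.5 to 14.1%) and within 100 kb of 41.3% (39.3 to 43.2%). For JUND-only peaks the shares with an ETV4 peak were 9.51% within 10 kb (8.36 to 10.8%) and 36.9% within 100 kb (35.0 to 38.9%). The median gap to the other factor was 158.2 kb for ETV4-only peaks (145.0 to 173.7 kb) and 185.9 kb for JUND-only peaks (167.6 to 208.0 kb). With the first 50% of the rows of each file these medians were 364.5 and 364.1 kb, so the order of the 2 classes did not hold there.

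At the far end, 13.6% of the ETV4-only peaks (12.3 to 15.1%) and 12.6% of the JUND-only peaks (11.3 to 14.1%) were more than 1 Mb from the other factor. The most distant ETV4 peaks were both on chromosome X. The peak at chrX:81955382-81955871 lay 10.2 Mb from the nearest JUND peak, and the peak at chrX:53309560-53310060 lay 7.74 Mb away. The most distant JUND peaks were chr8:570743-571239, which was 7.61 Mb from ETV4 and overlapped a FLAG-ETV1 peak, and chr9:138039927-138040405, which was 7.35 Mb from ETV4 but 80.8 kb from another JUND peak.

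ETV4 peaks were more closely grouped with each other than JUND peaks were. Another ETV4 peak lay within 10 kb of 21.0% of the ETV4 peaks (19.6 to 22.5%), and another JUND peak within 10 kb of 11.5% of the JUND peaks (10.4 to 12.7%). The median gap to the nearest peak of the same list was 76.1 kb for ETV4 (68.1 to 83.8 kb) and 118.9 kb for JUND (108.9 to 136.0 kb). The 2 lists are of similar length, and the intervals did not overlap. The same order was found at limits of 5 kb (14.3% and 6.59%) and 25 kb (31.4% and 22.2%), with the first 50% of rows (17.2% and 9.21%) and without chromosomes 3, 8 and 10 (18.9% and 9.74%).

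The difference was one of short range. Between 2 and 5 kb from an ETV4 midpoint there were 19.1 other ETV4 peaks per Mb, against 7.85 JUND peaks per Mb around a JUND midpoint. Between 5 and 10 kb the densities were 11.4 and 5.99 per Mb. Between 500 and 1000 kb they were 1.92 and 1.96 per Mb. The density of ETV4 around JUND was 12.3 per Mb at 1 to 2 kb, 9.87 at 2 to 5 kb and 1.88 at 500 to 1000 kb. In each ring between 1 and 500 kb it was closer to the JUND than to the ETV4 curve. Within 0.5 kb, where peaks of the 2 lists overlap, it was 244.2 per Mb. Between 0.5 and 1 kb it was 7.06 per Mb, a value that rests on 21 pairs.

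**Figure D2:**
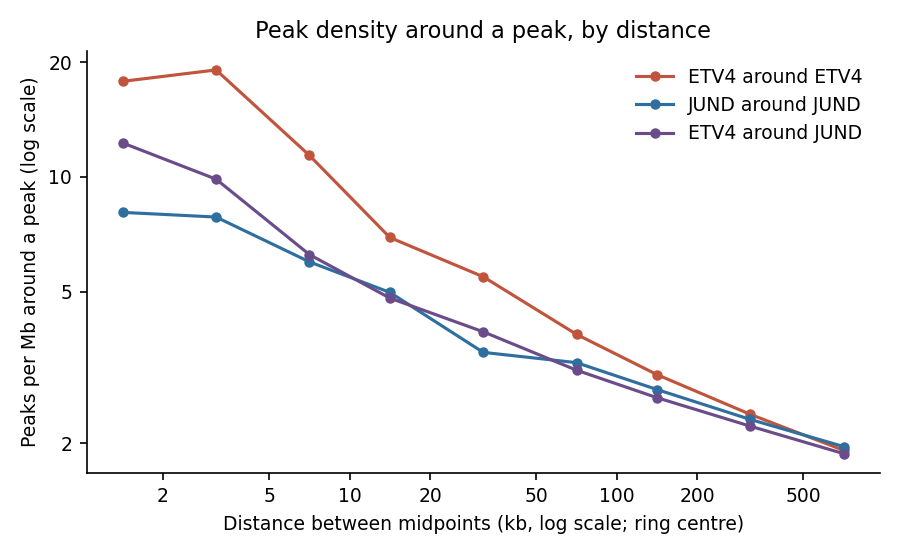
Peaks per Mb around a peak (vertical axis, log scale) by distance between midpoints in kb (horizontal axis, log scale, points at ring centres), for ETV4 around ETV4, JUND around JUND and ETV4 around JUND. The ETV4 curve is highest at short range, 19.1 per Mb at 2 to 5 kb against 7.85 for JUND, and the 3 curves come together at 1.88 to 1.96 per Mb at 500 to 1000 kb.

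Shared regions were not more isolated than single-list regions. Another PC3 region of any class lay within 10 kb of 30.6% of the shared regions (27.4 to 34.1%), of 25.4% of the ETV4-only peaks (23.8 to 27.2%) and of 16.0% of the JUND-only peaks (14.5 to 17.6%). When a shared region had such a neighbour, the nearest one was ETV4-only in 56.1% of 221 cases (49.5 to 62.5%), JUND-only in 24.4% (19.2 to 30.5%) and shared in 19.5% (14.8 to 25.2%). Over all regions the classes made up 44.9%, 41.7% and 13.4%. The neighbours of ETV4-only peaks within 10 kb were divided much as those of shared regions. They were 55.2% ETV4-only, 25.3% JUND-only and 19.5% shared among 616 cases. The neighbours of JUND-only peaks within 10 kb were more evenly divided, 41.4% ETV4-only and 43.9% JUND-only among 360 cases.

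Chained at gaps of 10 kb or less, the 6116 peaks formed 4724 clusters, of which 826 held both factors. Of the 527 clusters with at least 2 regions, 61.7% held both (57.5 to 65.7%), 25.4% held ETV4 alone (21.9 to 29.3%) and 12.9% held JUND alone (10.3 to 16.0%). Among the 27 clusters with 5 or more peaks, 26 held both factors. A shared region makes its cluster mixed by definition. Of the 826 mixed clusters, 687 held a shared region, and 501 consisted of a single shared region. With lists of similar length, clusters of many peaks also hold both factors more easily. No expected number was computed, so these counts do not measure a tendency to cluster together. In 139 of the 826 mixed clusters ETV4 and JUND peaks were neighbours without overlapping.

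The largest mixed clusters had 5 ETV4 and 4 JUND peaks. One spanned 32.6 kb at chr11:121546761-121579357 with 4 shared regions, and the other spanned 29.0 kb at chr19:13805162-13834142 with 2 shared regions. RWPE-1 had 1 FLAG-ERG and 1 FLAG-ETV1 peak in the first and 1 FLAG-ERG peak in the second. The next, at chr8:145082642-145098389, held 5 ETV4 and 3 JUND peaks in 15.7 kb, with 3 shared regions. It also held 3 FLAG-ERG, 3 FLAG-ETV1 and 1 GABPA peak of RWPE-1. The largest ETV4 cluster without JUND had 7 peaks in 26.1 kb at chr16:1054017-1080144, with 1 GABPA, 1 FLAG-ERG and 2 FLAG-ETV1 peaks of RWPE-1. It was followed by clusters of 4 peaks each at chr11:64942707-64954403 and chr14:37119083-37127695. In the first of these 2, RWPE-1 had 2 FLAG-ERG and 3 FLAG-ETV1 peaks, and in the second none of its 4 lists had a peak. JUND clusters without ETV4 did not exceed 3 peaks. By position the first were chr5:175169446-175182038, chr6:34614897-34620153 and chr8:102161972-102180400. In RWPE-1 the first of these 3 held 1 FLAG-ERG peak, the second 2 GABPA peaks and the third 1 FLAG-ERG and 1 FLAG-ETV1 peak.

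Over windows of 1 Mb, ETV4 and JUND often fell in the same stretches. A PC3 peak of either factor was present in 1764 windows. ETV4 had a peak in 1343 windows, JUND in 1363, and 942 windows had both, but a shared region was found in only 495. Of the 231 windows with at least 5 peaks of either factor, 216 held both. Windows that dense hold both factors more easily, and no expected number was computed. Chromosome 10 showed how the factors parted over short stretches. In its window from 33000001 to 34000000 there were 17 ETV4 and 15 JUND peaks with 9 shared regions, the most of any window. The next window, from 34000001 to 35000000, had 2 ETV4 and 10 JUND peaks with 1 shared. The window from 36000001 to 37000000 had 16 ETV4 and 7 JUND peaks with 4 shared. FLAG-ERG had no peak in these 3 windows, whereas FLAG-ETV1 had 7, 2 and 1. ETS1 had 1 peak in the first and GABPA had 2 in the second.

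The second densest window for shared regions, 63000001 to 64000000 of chromosome 10, had 15 ETV4 and 9 JUND peaks and 6 shared regions. In the window after it there were 12 ETV4 and 4 JUND peaks with 2 shared. The next densest, 128000001 to 129000000 of chromosome 8, had 14 and 9 peaks with 5 shared. By the difference in peak number, ETV4 exceeded JUND by as much at 27000001 to 28000000 of chromosome 7, with 10 ETV4 peaks, 1 JUND peak and no shared region, as in the window of chromosome 10 with 16 and 7 peaks. JUND exceeded ETV4 most at 126000001 to 127000000 of chromosome 8, with 9 ETV4 and 17 JUND peaks and 4 shared. That excess was equalled in the windows of chromosome 10 from 34000001 and from 79000001. The last of these had 2 ETV4 and 10 JUND peaks. In RWPE-1 there were 19 GABPA, 7 FLAG-ETV1, 3 ETS1 and 2 FLAG-ERG peaks in it.

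By chromosome, the balance between the factors departed from the whole on 3 of 23 chromosomes. The share of ETV4, 51.4% over all PC3 peaks, was 62.0% on chromosome 4 (54.7 to 68.8%, 111 ETV4 and 68 JUND peaks), 57.4% on chromosome 3 (53.1 to 61.6%, 298 and 221) and 43.3% on chromosome 1 (39.2 to 47.4%, 241 and 316). On the other 20 chromosomes the interval included the value for all peaks. Intervals were not adjusted for their number.

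Sharing departed from the value for the whole list on few chromosomes. Of the chromosomes with at least 30 peaks in each list, chromosome 20 had the highest shared percentage of ETV4 peaks, 32.4% (24.4 to 41.6%), and chromosome 4 the lowest, 9.01% (4.97 to 15.8%, 10 regions). For JUND peaks, chromosome 10 was highest with 32.3% (26.3 to 39.1%) and chromosome 21 lowest with 12.5% (5.86 to 24.7%, 6 regions). The interval of chromosome 21 included the 24.3% of the whole JUND list. For ETV4 peaks the interval lay above the value of the whole list on 2 chromosomes and below it on 2. For JUND peaks it lay above on 1 and below on 1. These intervals were not adjusted for their number either. Outside the naming rule and chosen after their values were seen, chromosome 17 shared 43 of 140 peaks of either factor (30.7%, 23.7 to 38.8%). Chromosome 6 shared 19 of 128 ETV4 peaks (14.8%) and 19 of 127 JUND peaks (15.0%, 9.79 to 22.2%).

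**Figure D3:**
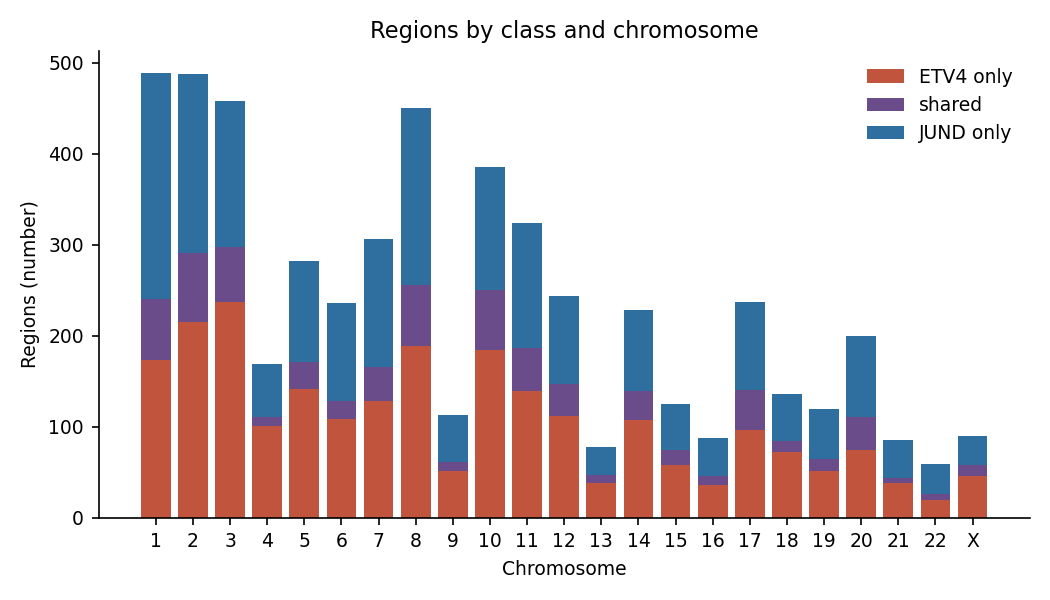
Number of regions (vertical axis) on each chromosome (horizontal axis), stacked as ETV4 only, shared and JUND only. Chromosome 1 has 173 ETV4-only, 68 shared and 248 JUND-only regions, while chromosome 3 has 237, 61 and 160.

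Shared peaks were slightly wider than single-list peaks in both files. The median width was 493 bp for shared (492 to 494 bp) and 489 bp for ETV4-only peaks (488 to 490 bp), and 491 bp for shared (489 to 492 bp) and 486 bp for JUND-only peaks (484 to 487 bp). Widths of at least 490 bp were found in 60.5% of the shared and 48.0% of the ETV4-only peaks. In the JUND file the shares were 53.3% and 42.2%. These differences of a few bp occurred against an upper limit of 501 bp in both lists. Width also went with row position. The median was 496 bp in the first and 490 bp in the last 10% of ETV4 rows, and 495 and 484 bp for JUND. The widths of the classes were not compared within parts of the rows.

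Shared peaks were concentrated in the first rows of both files. The labels do not say how the rows are ordered, so a row position is given as a property of the file and not as a binding strength. Of the first 10 rows, 8 were shared in each file, and of the first 100 rows, 57 in the ETV4 and 58 in the JUND file. In the first 10% of rows, 49.4% of the ETV4 peaks (43.9 to 54.9%) and 51.2% of the JUND peaks (45.5 to 56.8%) were shared. In the last 10% the shares were 13.1% (9.77 to 17.2%) and 11.8% (8.60 to 15.9%). The 2 files ran almost in parallel, and the difference between the first and last rows was far larger than the difference between the factors.

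**Figure D4:**
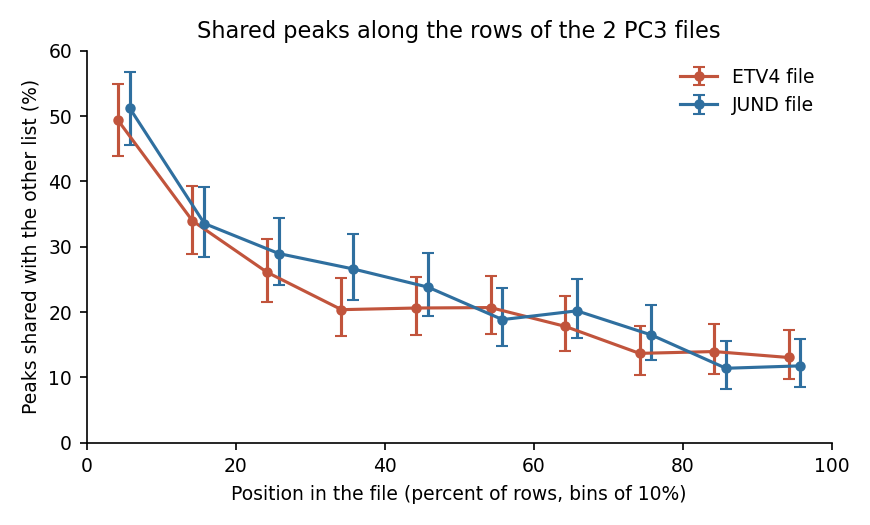
Percent of peaks shared with the other PC3 list (vertical axis, with Wilson 95% intervals) by position in the file in bins of 10% of the rows (horizontal axis), for the ETV4 and the JUND file. Both start near 50%, at 49.4% and 51.2%, and end at 13.1% and 11.8%.

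An early row in one file went only loosely with an early row in the other. Of the 722 shared regions, 106 were in the first 20% of rows of both files, 302 in the first 20% of a single file and 314 in the first 20% of neither. Shared peaks in the first 20% of ETV4 rows had a median JUND position of 27.4% of the file, and those in the last 20% a median of 38.8%. In the other direction the median ETV4 positions were 28.1% and 39.8%. Across the 722 pairs, the Spearman correlation of the 2 positions was 0.161, given as a description only. The median midpoint distance was 57.8 bp for regions in the first 20% of both files (38 to 76 bp, 106 regions) and 94.5 bp for regions in the last 20% of either file (74 to 122.5 bp, 146 regions), with intervals that overlapped.

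Grouping of peaks also went with the rows. In the first 20% of rows 30.2% of the ETV4 peaks (190 of 629) and 16.8% of the JUND peaks (100 of 595) had a peak of their own list within 10 kb. In the last 20% the values were 16.5% (104 of 629) and 8.07% (48 of 595). Within the first 20% of ETV4 rows, shared and ETV4-only peaks had such a neighbour at 32.1% (26.7 to 37.9%) and 28.9% (24.5 to 33.7%), with overlapping intervals. The ETV4 value was above the JUND value in each of the 5 successive parts of 20% of rows.

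The RWPE-1 lists gave a readout that did not enter the classes. Peaks with both factors in PC3 were more often found among the regions of ectopic ETS proteins in RWPE-1 than peaks with JUND alone. FLAG-ERG overlapped 14.0% of the JUND peaks shared with ETV4 (11.7 to 16.7%) and 4.09% of the JUND-only peaks (3.34 to 4.98%). FLAG-ETV1 overlapped 14.5% (12.2 to 17.3%) and 5.86% (4.97 to 6.91%). ETS1 overlapped 2.91% (1.91 to 4.41%) and 1.11% (0.753 to 1.63%). GABPA overlapped 1.25% (0.657 to 2.35%) and 1.16% (0.789 to 1.69%), with overlapping intervals. Over the whole lists the 2 kinds of single-list peaks had similar shares with each FLAG list. Of the ETV4-only peaks, 4.34% (3.60 to 5.22%) overlapped FLAG-ERG and 5.99% (5.11 to 7.01%) overlapped FLAG-ETV1. They differed in overlap with at least 3 of the 4 RWPE-1 lists, found for 18 of 2421 ETV4-only peaks (0.74%, 0.47 to 1.17%). Among 2251 JUND-only peaks there were 2 (0.089%, 0.024 to 0.323%).

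Overlap with the FLAG lists was also more frequent in the first rows, from 14.1% to 3.34% of all ETV4 peaks for FLAG-ERG between the first and last 20%, while for GABPA it was 1.43% and 1.59%. The classes were therefore compared within successive parts of 20% of the rows. In the ETV4 file, FLAG-ERG overlapped more of the shared than of the ETV4-only peaks in 5 of 5 parts. The values were 21.4% (16.8 to 26.7%) and 8.99% (6.47 to 12.4%) in the first part, and 9.41% (4.85 to 17.5%) and 2.39% (1.40 to 4.05%) in the last. Averaged over the 5 parts with equal weight, they were 12.1% and 4.63%, a ratio of 2.61 against 3.26 without regard to rows. For FLAG-ETV1 the ratio was 2.03 against 2.45, with shared peaks higher in 5 of 5 parts, although 7.06% and 6.43% in the last part hardly differed. In the JUND file the ratio for FLAG-ERG was 2.78 against 3.42. There the shared peaks were higher in 4 of 5 parts, and in the last part FLAG-ERG overlapped 1 of 69 shared peaks (1.45%, 0.256 to 7.76%) and 2.66% of the JUND-only peaks (1.59 to 4.42%). For FLAG-ETV1 it was 2.16 against 2.48, with shared peaks higher in 5 of 5 parts. For ETS1 shared peaks were higher in 5 of 5 parts of both files, with ratios of 2.13 against 2.20 in the ETV4 file and 2.68 against 2.62 in the JUND file, from 23 and 21 shared peaks.

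**Figure D5:**
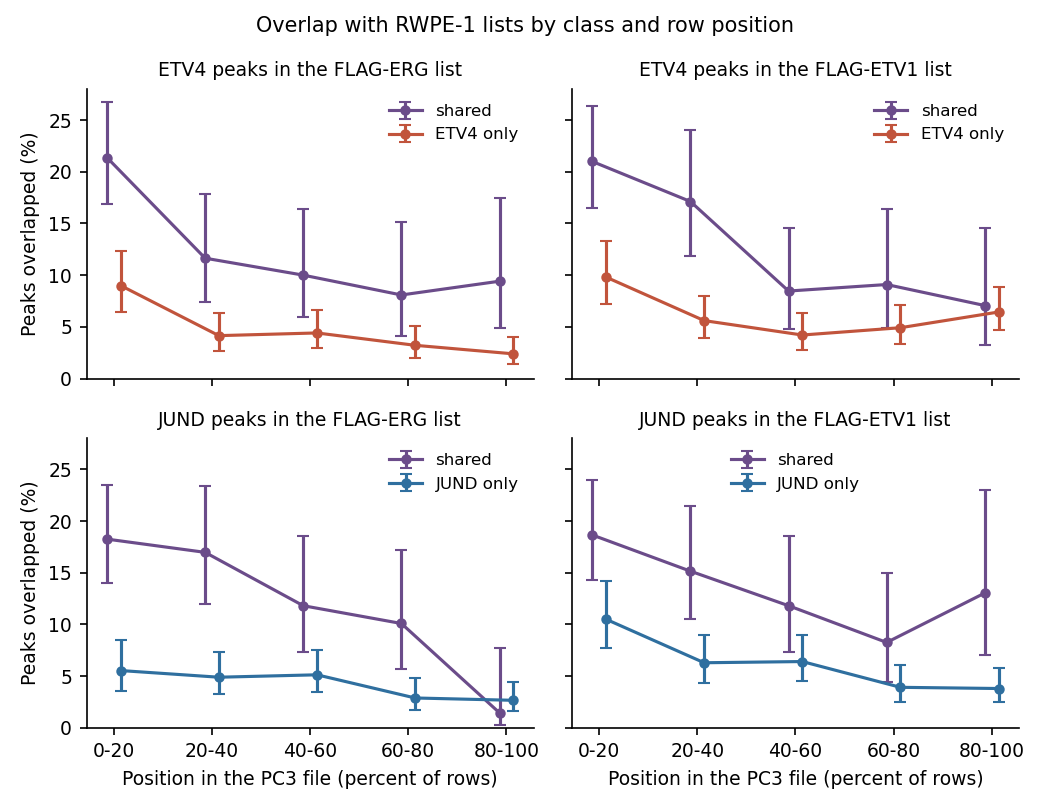
Percent of PC3 peaks overlapped by the FLAG-ERG (left) and FLAG-ETV1 (right) list of RWPE-1 (vertical axes, with Wilson 95% intervals) by position in the PC3 file in parts of 20% of rows (horizontal axes), for shared and single-list peaks of the ETV4 (top) and JUND (bottom) file. Shared peaks lie above single-list peaks in all parts except the last of the JUND file for FLAG-ERG, where the values are 1.45% and 2.66%.

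Most PC3 peaks overlapped no RWPE-1 list, and the shared ones overlapped one more often than the whole. At least 1 RWPE-1 list overlapped 24.1% of the shared ETV4 peaks (21.1 to 27.4%) against 12.9% of all ETV4 peaks (11.8 to 14.2%), and 23.5% of the shared JUND peaks (20.6 to 26.8%) against 13.6% of all JUND peaks (12.4 to 14.9%). Of the 722 shared regions, 548 overlapped no RWPE-1 peak with either peak (75.9%), 115 overlapped a peak of 1 list, 51 of 2 lists and 8 of 3 lists, and none of all 4. The most frequent combinations were FLAG-ETV1 alone with 55 regions, FLAG-ERG alone with 47 and both with 39, whereas 7 regions carried GABPA alone and 6 carried ETS1 alone. By position, the first regions with 3 lists were chr1:59087134-59087672, with GABPA, FLAG-ERG and FLAG-ETV1, and chr1:93939607-93940136 and chr1:150287043-150287686, each with ETS1, FLAG-ERG and FLAG-ETV1. The PC3 and RWPE-1 lists differ in cell line as well as in factor and antibody, and these cannot be told apart.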

How the data were processed

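ChIP-seq libraries were made with the Illumina kit, per the labels' protocols. The deposited files give a chromosome, start and end per region, with no header, on hg18 per the labels. The ETV4 list holds 3143 regions and the JUND list 2973. The aligner, peak caller and threshold used by the authors were not given in the sources used. By title the series also holds a PC3 input, an RWPE-1 input and an RWPE-1 FLAG control library. Whether these served as controls in calling the peaks was not given. Starts were read as counted from 0 and are printed counted from 1. Samples were grouped by title, with 1 library per factor.

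Overlaps, gaps between peak edges, clusters chained at 10 kb and windows of 1 Mb, each peak placed by its midpoint, were computed in Python 3.11.15 with pandas 2.3.3, numpy 2.4.6, matplotlib 3.10.9 and scipy 1.17.1. Overlaps and gaps were tested on simulated data and gave the same values as bedtools 2.31.1. No test between factors was run. Sequencing depth is unknown.

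The members, classes and naming rules were chosen with earlier results of these data known. The pair densities, the neighbour classes, the gaps to RWPE-1 peaks and the comparisons within parts of 20% of rows were added after the lists were examined. Regions named were extremes by row, cluster size, window count, distance, chromosome share and number of RWPE-1 lists, with ties by position. Alternatives were autosomes only, leaving out chromosomes 3, 8 and 10, a reciprocal overlap of 50%, gaps up to 500 bp, midpoints within 100 bp, peaks of 400 bp, midpoint distances, the first 50% of rows, and chains of 5 and 25 kb. Sequences and genes were not analysed here.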

Additional observations from a re-analysis of the deposited data

How the results depend on the processing

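No paired analysis was possible because each factor had 1 library. The shared percentages of the ETV4 and JUND lists were 21.1% and 22.3% with a reciprocal overlap of 50%. They were 14.2% and 15.0% with midpoints within 100 bp, and 20.9% and 22.1% with the first 50% of rows. The last setting cuts both files, so an early peak whose partner stands in a later row is counted as single-list. It kept 329 pairs. Of the 722 shared regions, 473 were in the first 50% of ETV4 rows and 488 in the first 50% of JUND rows. The median gap to the other factor for ETV4-only and JUND-only peaks was 191.4 and 218.6 kb without chromosomes 3, 8 and 10, and 364.5 and 364.1 kb with the first 50% of rows, which holds fewer peaks by construction. The shares with a peak of the same list nearby were 18.9% and 9.74% without chromosomes 3, 8 and 10, 17.2% and 9.21% with the first 50% of rows, 14.3% and 6.59% at 5 kb, and 31.4% and 22.2% at 25 kb. The mean row position of shared ETV4 peaks was 36.0% of the file with midpoints within 100 bp, against 38.1%. Shared peaks exceeded ETV4-only and JUND-only peaks in FLAG-ERG overlap by 9.79 and 9.90 percentage points, and by 14.4 and 15.6 points with the first 50% of rows. The difference of -0.199 points in GABPA overlap between shared and ETV4-only peaks was 0.0758 points without chromosomes 3, 8 and 10 and 0.198 points with midpoints within 100 bp. The causes were not tested. Unknown depth and thresholds limit every share, since a peak missing from a list may lie below its threshold.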

Other observations

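The single-list peaks of the 2 factors differed in how far they lay from the RWPE-1 peaks, although few of either overlapped one. The median gap to the nearest GABPA peak was 172.6 kb for ETV4-only peaks (159.0 to 187.3 kb) and 97.0 kb for JUND-only peaks (91.2 to 107.1 kb). To the nearest ETS1 peak the medians were 614.0 kb (551.3 to 677.8 kb) and 391.5 kb (357.1 to 425.7 kb), to FLAG-ERG 505.0 kb (458.7 to 558.4 kb) and 370.9 kb (332.2 to 405.6 kb), and to FLAG-ETV1 99.7 kb (91.0 to 108.1 kb) and 73.2 kb (67.1 to 82.4 kb). JUND-only peaks were nearer to each of the 4 lists, and the intervals did not overlap. Gaps to different RWPE-1 lists are not like for like, since the lists differ in length. For GABPA the order was the same without chromosomes 3, 8 and 10 (143.0 and 89.0 kb) and with the first 50% of rows (155.5 and 90.6 kb).

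In regions that carried both factors, ectopic ETS peaks of RWPE-1 lay nearer to ETV4 about as often as to JUND. Among FLAG-ERG peaks that overlapped both PC3 peaks of a shared region, 53 had their midpoint nearer to that of ETV4 and 47 nearer to that of JUND, while 1 was equally far, with median distances of 59.5 bp (49.5 to 108.5 bp) and 76 bp (61.5 to 110 bp). For 105 FLAG-ETV1 peaks the counts were 54 and 50. The shares nearer to ETV4 were 52.5% for FLAG-ERG (42.8 to 61.9%) and 51.4% for FLAG-ETV1 (42.0 to 60.8%). These intervals are wide enough to include a preference in either direction. FLAG-ERG midpoints lay closer to ETV4 midpoints in shared regions, with a median of 59.8 bp (49.5 to 110 bp, 102 overlaps), than in ETV4-only regions, with 123.5 bp (92.5 to 159 bp, 105 overlaps). The same order was found for JUND midpoints. Their median distance from FLAG-ERG midpoints was 76 bp in shared regions (61.5 to 110 bp, 101 overlaps). In JUND-only regions it was 130.8 bp (96 to 164 bp, 92 overlaps). The shorter distance in shared regions was therefore not particular to ETV4. For each factor the intervals of the medians overlapped, and the differences were not tested.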
